A study of Mus musculus with 5 samples.

Results

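Cultures of primary lung fibroblasts contained messenger RNA of genes typical of macrophages, and 35 genes of macrophages and other leukocytes are described here. They were taken by symbol, out of 55335 genes in the table, from a fixed list of leukocyte genes. That list was proposed with earlier results of these data known. The list holds lineage regulators, Fc receptors and their adaptors, pattern recognition receptors, leukocyte integrins, complement C1q chains, lysozymes and phagolysosomal genes, oxidase subunits, and major histocompatibility complex (MHC) class II genes. All 35 symbols matched an Ensembl gene, and 34 passed the filter on low counts and were tested, H2-Aa being the exception.

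The fibroblasts were isolated from mouse lung and grown in vitro. The 3 treated libraries come from cells that had received TGF-β1 (5 ng/mL) during 24 h, and the 2 control libraries from cells given vehicle. No step that removes leukocytes is described in the sources used here. Strain, age and genotype of the mice are not given there. The series' design text calls the replicates independent and biological without naming animals or dishes, so the p-values rest on the spread among 5 libraries whose origin is not named further.

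Macrophages are phagocytes that live in every lung compartment. They depend on the receptor for colony-stimulating factor 1 (Csf1r) and the transcription factor PU.1 (Spi1), take up particles through Fc, scavenger and lectin receptors, and secrete lysozyme and C1q. TGF-β1 is a cytokine known to act on macrophages as well as on fibroblasts, and macrophages adhering to plastic are a known companion of fibroblast cultures grown out of lung tissue.

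Libraries held 34283288 to 43163967 counts, and 21045 to 21730 genes were detected in each. Libraries of 1 group differed beyond counting noise: the chi-square over its degrees of freedom was 4.06 to 8.47 for pairs within a group and 145 to 160.4 for pairs across groups. TGF-β1 replicate 3 was the library farthest from the others of its group. Levels are in CPM, the counts per 1000000 of the library's total after scaling with TMM factors, which correct for RNA composition. They are given as mean ± SD over 2 control and 3 TGF-β1 libraries. Changes are the log2 ratio of TGF-β1 to control from the fit, also called the log2 fold change, with its standard error (SE), and adjusted p-values come from edgeR's quasi-likelihood test over 16380 genes, two-sided, with a threshold of 0.05.

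The leukocyte genes were not traces. Together they took 0.404% and 0.400% of all counts in the controls and 0.274%, 0.276% and 0.277% with TGF-β1. Lyz2, a lysozyme of myeloid cells, made up 52.2% and 51.2% of these counts in the controls and 39.8% to 40.4% with TGF-β1. The summed level of all 35 genes was 3858 ± 39.8 CPM in control and 2831 ± 15.0 CPM with TGF-β1, a ratio of 0.734. Without Lyz2 the sums were 1864 ± 9.66 and 1695 ± 9.87 CPM, a ratio of 0.909. CPM are shares of bulk RNA, so fewer cells of a type, less RNA per cell and more RNA from other cells cannot be told apart.

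Of the 34 tested genes, 17 were lower and 7 were higher with TGF-β1, and 10 did not pass. Over all genes tested, 23.2% were lower, 21.3% were higher and 44.5% were called in either direction. The count of lower genes was thus above the share in all genes, and the count of higher genes was near it. At least 2-fold, 3 of the 34 were higher and 2 were lower, against 3.19% and 7.74% of all genes. All TGF-β1 libraries lay below both controls for 21 of the 34 genes and above both for 8, against 33% and 31.6% of all genes. The median log2 fold change of the 34 was −0.19, against 0.00 for all genes tested.

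**Figure D1:**
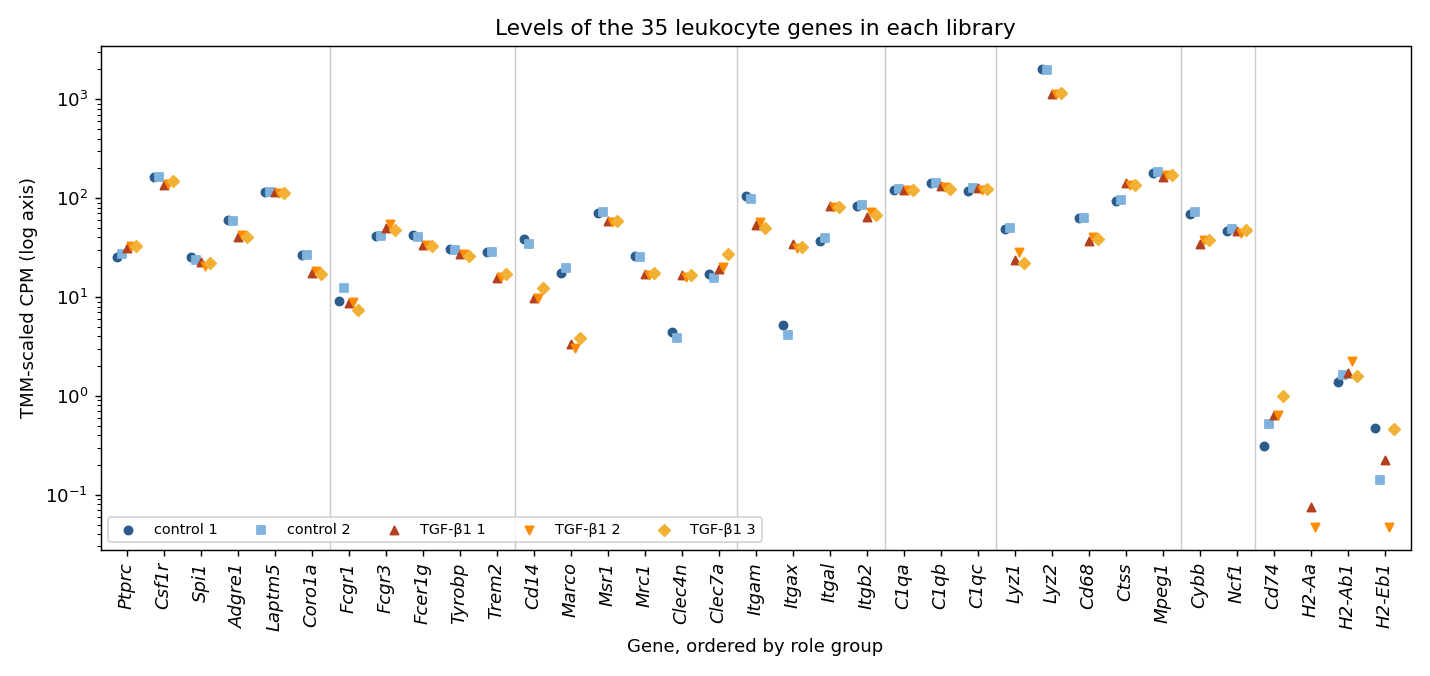
TMM-scaled CPM (log axis) of the 35 leukocyte genes in each of the 5 libraries, ordered by role group, with values of 0 not drawn. Lyz2 lies above all other genes in every library, the MHC class II genes lie below 3 CPM, and the rest lie in between.

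The 34 changes did not share a common size or direction. They ran from −2.44 for Marco to 2.80 for Itgax. For the 31 genes with a mean of at least 5 CPM, the SD of the log2 fold changes across genes was 0.965, and 15 of the 31 differed from 0 by at least 0.5. The same 31 genes differed little between the 2 controls: the SD of the log2 ratio of control 2 to control 1 was 0.124, it ran from −0.33 to 0.41, and it reached 0.5 in either direction for 0 genes. TGF-β1 replicate 3 against the mean of the other TGF-β1 replicates gave an SD of 0.145. Over all 10928 genes with that mean level, the SD was 0.603 between the groups, and 2152 differed from 0 by at least 0.5. Between the controls the SD over all genes was 0.155, and 109 of 10927 reached 0.5 in either direction.

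**Figure D2:**
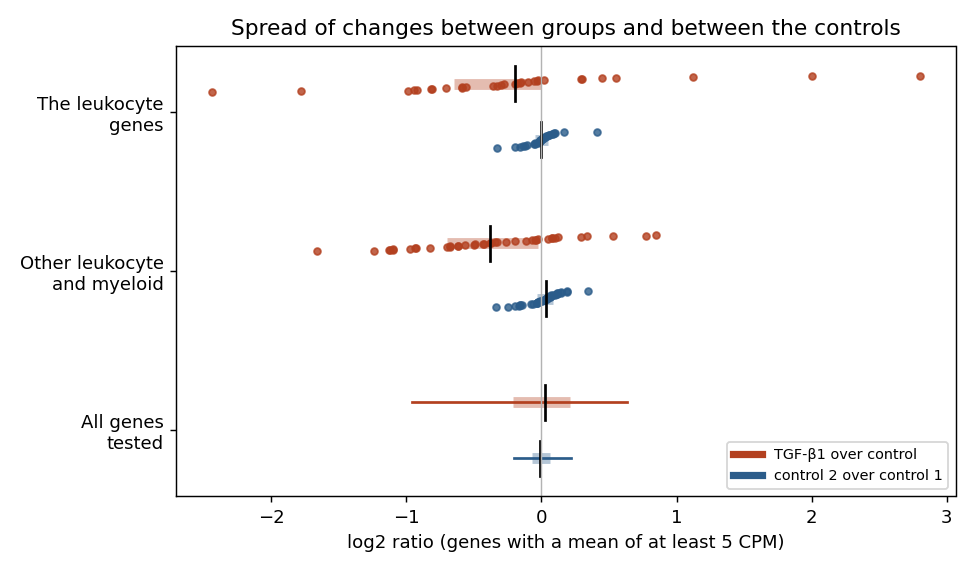
Log2 ratios of genes with a mean of at least 5 CPM, TGF-β1 over control in red and control 2 over control 1 in blue. Points are genes, thick bars the interquartile range, black ticks the median and thin lines, for all genes tested, the 5th to the 95th percentile: the leukocyte genes spread widely between groups and narrowly between the controls.

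Among lineage regulators and pan-leukocyte genes, changes were small and in both directions: 3 of 6 were lower, 1 was higher and 2 missed the threshold. Ptprc, the leukocyte common antigen CD45 that all nucleated blood cells carry (ENSMUSG00000026395, chromosome 1, 138062861 to 138175708 of GRCm38), stood at 25.4 and 27.3 CPM in the controls and at 31.5, 32.9 and 32.5 CPM with TGF-β1. All TGF-β1 libraries lay above both controls, and the gene rose 1.22-fold (log2 ratio 0.29, SE 0.062, adjusted p = 0.00398).

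Csf1r, the receptor on which macrophages depend for survival (ENSMUSG00000024621, chromosome 18), stood at 163 CPM in both controls and at 136, 140.0 and 149 CPM with TGF-β1, and fell 1.15-fold (log2 ratio −0.20, SE 0.044, adjusted p = 0.00505). Its exons overlap 873 bases of Hmgxb3 on the opposite strand, and Hmgxb3 held 29.6% as many counts and rose, so the value is uncertain if strand was not used in counting. Spi1, which encodes the myeloid transcription factor PU.1, went from 24.3 ± 1.27 to 21.9 ± 1.07 CPM and did not pass (log2 ratio −0.15, SE 0.074, adjusted p = 0.126). Laptm5, a lysosomal membrane protein of blood cells, was at 115 ± 1.20 and 113 ± 1.40 CPM, a log2 difference of −0.03 with an SE of 0.037 (adjusted p = 0.561).

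The remaining genes of this group fell further. Adgre1, the F4/80 antigen of mouse macrophages, was at 60.6 and 59.4 CPM in the controls and at 40.0, 41.9 and 40.1 CPM with TGF-β1, a 1.47-fold decrease (log2 ratio −0.56, SE 0.049, adjusted p = 1.58e-05). Coro1a, an actin regulator of leukocytes, fell from 26.6 ± 0.281 to 17.7 ± 0.671 CPM (log2 ratio −0.59). Its exons overlap Bola2 on the opposite strand over 26 of 2783 bases, so only reads at that short stretch are uncertain if strand was not used. Ptprc and Adgre1, both surface markers used to count such cells, thus moved in opposite directions in the same libraries.

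**Figure D3:**
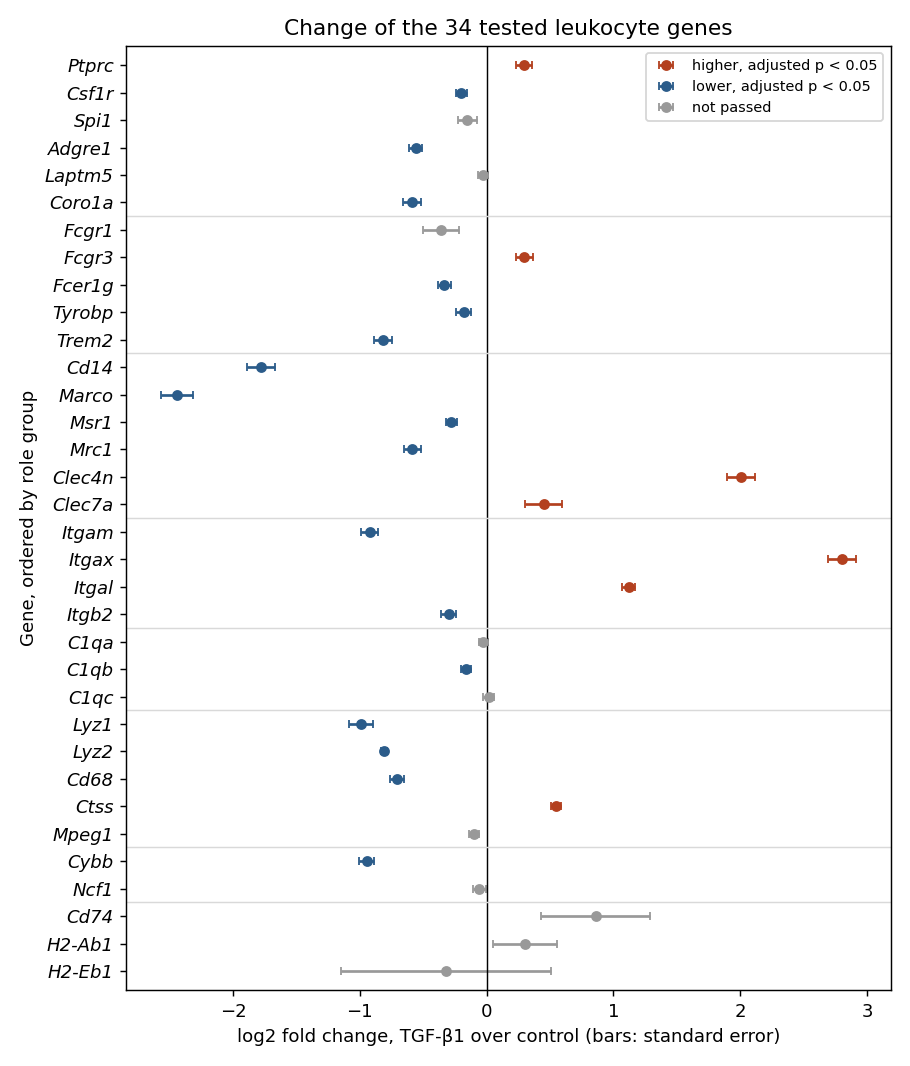
Log2 fold change of TGF-β1 over control for the 34 tested genes, by role group, with bars of 1 SE. The 7 genes called higher are red, the 17 called lower are blue and the 10 that did not pass are grey; most role groups hold more than 1 color.

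Fc receptors bind the constant part of antibodies, and they signal through small adaptors with immunoreceptor tyrosine motifs. Fcgr3, an activating receptor for immunoglobulin G (ENSMUSG00000059498, chromosome 1, 171051174 to 171064935), was at 41.5 and 41.2 CPM in the controls and at 50.3, 54.8 and 47.3 CPM with TGF-β1. It rose 1.23-fold (log2 ratio 0.30, SE 0.066, adjusted p = 0.00531). Of its 50-base words, 9.58% also occur in transcripts of Fcgr2b, the inhibitory receptor, which fell (log2 ratio −0.43, adjusted p = 0.0110), so reads between them may be shared.

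Fcer1g, the adaptor chain that Fcgr3 and Fcgr1 need at the cell surface, moved the opposite way to Fcgr3. It fell from 41.7 ± 1.13 to 33.1 ± 0.537 CPM (log2 ratio −0.33, SE 0.053, adjusted p = 0.000746). Tyrobp, the adaptor known as DAP12, went from 30.2 ± 0.130 to 26.7 ± 0.527 CPM (log2 ratio −0.18, SE 0.059, adjusted p = 0.0326). That call was lost with DESeq2 and without any single library. It was also lost with the replicate number as a block, which takes up TGF-β1 replicate 3. Over the alternatives that kept both controls, adjusted p ran from 0.00378 to 0.120. Trem2, a lipid receptor that signals through Tyrobp, was at 28.6 CPM in both controls and at 15.5, 15.9 and 17.3 CPM with TGF-β1. That decrease was 1.76-fold (log2 ratio −0.82, SE 0.074, adjusted p = 1.88e-05), larger than that of its adaptor.

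Fcgr1, the high-affinity receptor for immunoglobulin G and a known interferon target, was at 9.16 CPM in control 1 and 12.2 CPM in control 2. It was at 8.65, 8.90 and 7.45 CPM with TGF-β1, and did not pass (log2 ratio −0.36, SE 0.145, adjusted p = 0.0723). The controls also differed in a list of 16 interferon-stimulated genes, which summed to 322 CPM in control 1 and 616 CPM in control 2, against 122 to 167 CPM with TGF-β1. Control 2 was above control 1 in 15 of those 16, by a median log2 ratio of 0.93, and the ratio for Fcgr1 was 0.41, the largest among the 31 genes of at least 5 CPM. Without control 1 Fcgr1 passed (log2 ratio −0.55, adjusted p = 0.0277), and without control 2 its log2 ratio was −0.13 (adjusted p = 0.555), the ends of the p range over its alternatives. The part of interferon signalling in the Fcgr1 values was not tested.

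Receptors for microbial patterns and modified lipoproteins moved in both directions and held 3 of the 5 largest changes: 4 of 6 were lower, 2 were higher and 0 missed the threshold. Marco, a scavenger receptor with a collagenous domain (ENSMUSG00000026390, chromosome 1, 120474538 to 120505024), was at 17.4 and 19.5 CPM in the controls and at 3.33, 3.05 and 3.85 CPM with TGF-β1. The groups were far apart, and the gene fell 5.42-fold (log2 ratio −2.44, SE 0.127, adjusted p = 4.41e-07). Cd14, the co-receptor for bacterial lipopolysaccharide (ENSMUSG00000051439, chromosome 18), was at 38.1 and 34.2 CPM in the controls and at 9.72, 9.69 and 12.3 CPM with TGF-β1, a 3.43-fold decrease (log2 ratio −1.78, SE 0.109, adjusted p = 1.34e-06).

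The other scavenger receptors fell less. Msr1, the class A scavenger receptor, went from 71.0 ± 0.874 to 58.6 ± 0.968 CPM (log2 ratio −0.28, adjusted p = 0.000812). Mrc1, the mannose receptor, fell from 25.5 ± 0.577 to 17.0 ± 0.275 CPM (log2 ratio −0.58, adjusted p = 0.000106).

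Clec4n and Clec7a, receptors for fungal sugars, rose, unlike the mannose receptor Mrc1, which is also a C-type lectin. Clec4n, also called Dectin-2 (ENSMUSG00000023349, chromosome 6, 123229843 to 123247021), was at 4.38 and 3.83 CPM in the controls and at 16.6, 15.9 and 16.9 CPM with TGF-β1. It rose 4.01-fold (log2 ratio 2.00, SE 0.110, adjusted p = 6.60e-07). Clec7a, also called Dectin-1, was at 17.1 and 15.6 CPM in the controls and at 19.4, 20.1 and 27.3 CPM with TGF-β1, where replicate 3 was the highest (log2 ratio 0.45, SE 0.143, adjusted p = 0.0299). Without TGF-β1 replicate 3 the log2 ratio was 0.28. It was also 0.28 with the replicate number as a block. No control carries that number, so the block takes up replicate 3 and is not a separate check. The call was lost without either control, without the low-count filter and with library totals (adjusted p from 0.00963 to 0.191 over its alternatives). Clec4d, a related C-type lectin receptor of myeloid cells outside the 35 genes, fell from 20.4 ± 0.207 to 6.45 ± 0.757 CPM (log2 ratio −1.66, adjusted p = 2.32e-06), so lectin receptors of 1 family moved in opposite directions.

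Leukocyte integrins are pairs of an α chain and the shared β2 chain, and they bind complement fragments and adhesion ligands. Their α chains split. Itgax, the αX chain used as a marker of dendritic cells and alveolar macrophages (ENSMUSG00000030789, chromosome 7, 128129547 to 128150657), was at 5.22 and 4.16 CPM in the controls and at 34.5, 31.0 and 32.3 CPM with TGF-β1. It had the largest increase of the 34 genes, 6.97-fold (log2 ratio 2.80, SE 0.110, adjusted p = 6.95e-08). Of its 50-base words, 8.02% also occur in transcripts of Itgad, which did not pass the low-count filter.

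Itgal, the αL chain of the adhesion receptor LFA-1 (ENSMUSG00000030830, chromosome 7, 127296260 to 127335138), was at 36.6 and 39.1 CPM in the controls and at 83.3, 82.2 and 82.0 CPM with TGF-β1, a 2.18-fold increase (log2 ratio 1.12, SE 0.050, adjusted p = 1.62e-07). Itgam, the αM chain of complement receptor 3 (ENSMUSG00000030786, chromosome 7, 128062640 to 128118491), was at 106 and 97.8 CPM in the controls and at 53.2, 57.7 and 50.3 CPM with TGF-β1. It fell 1.90-fold (log2 ratio −0.92, SE 0.064, adjusted p = 3.11e-06). Itgb2, the shared β2 chain, fell from 84.4 ± 0.513 to 68.6 ± 4.32 CPM (log2 ratio −0.30, SE 0.056, adjusted p = 0.00206).

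The α chains were also set side by side per kilobase (kb) of exon. Itgam values on this scale are uncertain: Gm49368 is annotated on the same strand over 3450 of its 5024 exon bases, and 66.3% of the 50-base words of Itgam also occur in it, so reads that match both may be missing from either count. In the controls Itgam stood at 21.1 and 19.5 CPM per kb, Itgal at 5.58 and 5.96, and Itgax at 1.09 and 0.866. With TGF-β1, Itgal was at 12.7, 12.5 and 12.5 CPM per kb, Itgam at 10.6, 11.5 and 10.01 and Itgax at 7.18, 6.45 and 6.72. Itgal was thus near Itgam in these libraries, and their order cannot be read from counts with this overlap. As deposited, Itgam made up 76.0% and 74.0% of the summed α chains in the controls and 34.3% to 37.7% with TGF-β1, while the share of Itgax went from 3.30% and 3.91% to between 21.2% and 23.6%. The summed α chains were 27.8 and 26.3 CPM per kb in the controls and 29.2 to 30.5 with TGF-β1.

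Gm49368 had 2 counts in control 1, 260 in control 2 and 146, 5 and 302 with TGF-β1, a pattern that did not follow the groups. Adding its counts to Itgam, an alternative chosen after the values were seen, gave 21.1 and 20.7 CPM per kb in the controls and 11.3, 11.5 and 11.6 with TGF-β1 (log2 ratio −0.87, adjusted p = 2.59e-07, against 5.76e-36 to 0.000253 over all alternatives for Itgam). This sum does not hold reads left out of both counts.

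**Figure D4:**
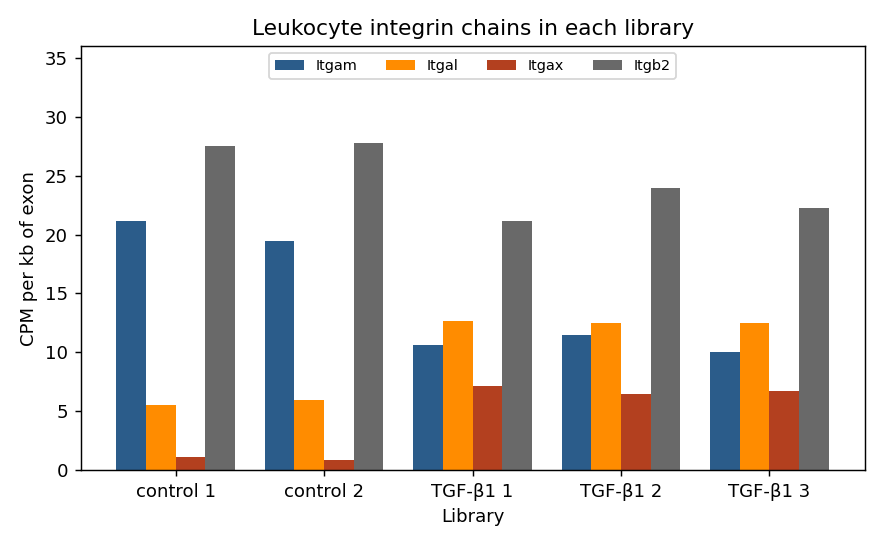
CPM per kb of exon for 3 integrin α chains and the shared β2 chain Itgb2 in each library, with bars starting at 0. Itgam lies far above Itgal in both controls, and the bars of Itgal and Itgam are close in the 3 TGF-β1 libraries, where Itgam is uncertain.

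The sequence just upstream of the start is shown for 4 genes that moved apart: the integrin genes Itgam and Itgax, which lie near each other on chromosome 7 and changed in opposite directions, Marco with the largest decrease, and Ctss, a protease gene that rose. Each is the 200 bases before the RefSeq start on the gene's own strand, from GRCm38.p6, written 5′ to 3′. Capitals mark GAGGAA, the core that PU.1 binds, or TGANTCA, the AP-1 site, on either strand. The windows are chr7:128062440-128062639 on the plus strand for Itgam, chr7:128129350-128129549 on the plus strand for Itgax, chr1:120505025-120505224 on the minus strand for Marco and chr3:95526586-95526785 on the plus strand for Ctss.
Itgam: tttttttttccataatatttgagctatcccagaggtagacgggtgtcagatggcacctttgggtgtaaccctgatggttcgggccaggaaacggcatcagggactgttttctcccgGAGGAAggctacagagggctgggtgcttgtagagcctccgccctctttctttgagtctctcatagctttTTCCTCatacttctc
Itgax: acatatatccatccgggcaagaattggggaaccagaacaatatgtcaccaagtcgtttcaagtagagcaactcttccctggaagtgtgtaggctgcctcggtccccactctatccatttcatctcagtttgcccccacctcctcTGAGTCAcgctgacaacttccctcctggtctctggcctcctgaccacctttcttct
Marco: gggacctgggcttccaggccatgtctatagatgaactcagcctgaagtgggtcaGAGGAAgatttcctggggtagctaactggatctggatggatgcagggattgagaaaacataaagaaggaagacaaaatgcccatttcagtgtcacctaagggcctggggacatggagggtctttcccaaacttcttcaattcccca
Ctss: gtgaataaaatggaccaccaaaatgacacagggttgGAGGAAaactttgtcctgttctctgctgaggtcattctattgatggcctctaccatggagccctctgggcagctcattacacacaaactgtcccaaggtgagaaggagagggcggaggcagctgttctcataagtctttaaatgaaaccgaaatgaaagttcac

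The Itgam window held 2 GAGGAA matches, 84 and 15 bases before the start, and 0 AP-1 matches. The Itgax window held 0 GAGGAA matches and 1 AP-1 match, 56 bases before the start. Marco and Ctss, which moved in opposite directions, each held 1 GAGGAA match, 146 and 164 bases before the start. Of the 35 genes, 23 had a window in the RefSeq table, some of them more than 1. A gene was counted if any of its windows matched: 12 of the 23 held GAGGAA and 4 held TGANTCA. Of all 32851 windows in that table, 19% and 5.48% held them, searched on both strands. The latter are shares of windows and not of genes. Matches to different motifs shared no base. The other 12 genes were Spi1, C1qa, Itgb2, Tyrobp, Cd74, Adgre1, Itgal, Clec4n, H2-Ab1, Csf1r, Cd14 and Msr1. The SMAD palindrome GTCTAGAC was found in 0 of the 23 and in 0.107% of all windows, which says only that these letters are not in these stretches. Such matches are letters in a window and not measured binding.

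C1q, the starter molecule of the classical complement pathway, is assembled from 3 chains whose genes lie side by side on chromosome 4, and macrophages are its main source. The 3 chains were among the 5 genes with the highest level per kb in both groups, and their levels hardly moved: 1 of 3 was lower, 0 were higher and 2 missed the threshold. C1qa (136895917 to 136898803) stood at 120.2 and 123 CPM in the controls and at 119.7, 119 and 119.8 CPM with TGF-β1, a log2 difference of −0.03 with an SE of 0.036 (adjusted p = 0.605). C1qc (136889804 to 136893065) stood at 119 and 126 CPM in the controls and at 127, 119 and 125 CPM with TGF-β1, so the groups overlapped (log2 ratio 0.02, SE 0.044, adjusted p = 0.809). C1qb (136880129 to 136886187) went from 143 CPM in both controls to 132, 128 and 123 CPM and fell 1.12-fold (log2 ratio −0.16, SE 0.040, adjusted p = 0.00905). The C1qb call was lost without either control (adjusted p from 0.000546 to 0.0676 over its alternatives), and with library totals the C1qa and C1qc differences were −0.13 and −0.08.

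Per kb of exon the chains stood at 117 (C1qa), 131 (C1qb) and 63.4 (C1qc) CPM in the controls and at 115, 117 and 64.1 with TGF-β1. Their summed level was 387 ± 6.60 CPM in control and 371 ± 6.28 CPM with TGF-β1, a ratio of 0.959. The ratio over all 35 genes was 0.734, and 0.909 without Lyz2.

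Lysozymes and phagolysosomal genes mostly fell: 3 of 5 were lower, 1 was higher and 1 missed the threshold. Lyz2 (ENSMUSG00000069516, chromosome 10, 117277331 to 117282321) was the highest of the 35 genes per kb in both groups. It stood at 2029 and 1959.5 CPM in the controls and at 1133, 1128 and 1149.9 CPM with TGF-β1. The libraries of each group were close together, and the gene fell 1.75-fold (log2 ratio −0.81, SE 0.022, adjusted p = 6.25e-09).

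Lyz1, its neighbour and near copy, fell 1.99-fold from 49.1 ± 0.493 to 24.7 ± 3.36 CPM (log2 ratio −0.99). Its value is uncertain: 16.1% of its 50-base words also occur in Lyz2, and Lyz2 held 39.6 to 52.3 times its level in every library. With both counted as 1 gene, an alternative chosen after the values were seen, the log2 fold change was −0.82. Cd68, a glycoprotein of late endosomes, was at 62.9 and 63.2 CPM in the controls and at 36.5, 40.4 and 39.0 CPM with TGF-β1 (log2 ratio −0.71, SE 0.055, adjusted p = 7.16e-06).

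Ctss, the lysosomal protease cathepsin S that trims the class II invariant chain (ENSMUSG00000038642, chromosome 3, 95526786 to 95556403), moved the other way. It was at 92.5 and 95.2 CPM in the controls and at 141, 136 and 135 CPM with TGF-β1, a 1.46-fold increase (log2 ratio 0.55, SE 0.039, adjusted p = 4.04e-06). Mpeg1, the pore-forming protein perforin-2 of phagocytes, was at 181 ± 5.13 and 169 ± 5.26 CPM and did not pass (log2 ratio −0.10, SE 0.039, adjusted p = 0.0618). It passed with upper-quartile scaling, with library totals and without TGF-β1 replicate 3. It also passed with the replicate number as a block, which takes up that same library. Over the alternatives that kept both controls, adjusted p ran from 0.00270 to 0.223.

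The phagocyte oxidase makes superoxide from a membrane core and cytosolic subunits, and its genes did not move together. Cybb, the catalytic membrane subunit (ENSMUSG00000015340, chromosome X, 9435252 to 9487771), was at 69.3 and 72.0 CPM in the controls and at 34.3, 37.7 and 37.9 CPM with TGF-β1. It fell 1.93-fold (log2 ratio −0.95, SE 0.058, adjusted p = 1.36e-06). Ncf1, the cytosolic organizer, was at 46.7 and 49.2 CPM in the controls and at 46.3, 44.7 and 47.3 CPM with TGF-β1, with overlapping groups (log2 ratio −0.06, SE 0.053, adjusted p = 0.417). Its exons overlap 408 bases of Gtf2ird2 on the opposite strand, which held 20.6% as many counts. Of its partners outside the 35 genes, Ncf4 and Cyba fell (log2 ratios −0.62 and −0.20).

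MHC class II molecules present peptides to helper T cells, and dendritic cells and activated macrophages carry them in amounts. Here their genes were near 0 while the macrophage genes above were not. H2-Ab1, a class II β chain, was at 1.38 and 1.62 CPM in the controls and at 1.69, 2.26 and 1.60 CPM with TGF-β1, with overlapping groups (log2 ratio 0.31, SE 0.252, adjusted p = 0.363). Cd74, the invariant chain, was at 0.309 and 0.523 CPM in the controls and at 0.646, 0.643 and 1.01 CPM with TGF-β1, where every library lay above both controls without passing the test (log2 ratio 0.86, SE 0.432, adjusted p = 0.140). H2-Eb1 was at 0.310 ± 0.237 and 0.246 ± 0.210 CPM. H2-Aa had 0 counts in the controls, which allows at most 0.0386 CPM over the 2 libraries by a floor of 3 counts, and 3, 2 and 0 counts with TGF-β1.

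Of the 3 class II genes tested, 0 were called, and the depth of 11 to 39 counts per library for Cd74 limits what could be seen. In a list of 12 other genes of the pathway, 3 were lower, 2 were higher, 3 missed the threshold and 4 were not tested. Ciita, the master regulator of class II transcription, had 0, 0, 0, 3 and 0 counts and was named after its values were seen. H2-DMa, a peptide-loading chain, rose from 5.30 ± 0.805 to 9.59 ± 0.759 CPM (log2 ratio 0.86, adjusted p = 0.000875), while H2-DMb1, the β chain it pairs with, fell from 23.9 ± 1.10 to 16.8 ± 1.28 CPM (log2 ratio −0.51). Ctsl, a lysosomal protease that fibroblasts also make, rose from 421 ± 7.17 to 591 ± 7.69 CPM (log2 ratio 0.49).

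A further list of 50 leukocyte and myeloid genes also moved in both directions. Of 49 tested, 28 were lower, 6 were higher and 15 did not pass, with a median log2 fold change of −0.38. Their summed level went from 1293 ± 22.4 to 906 ± 20.6 CPM, a ratio of 0.701. The largest decreases by the naming rule were Clec4d, given above, Pirb, an inhibitory receptor for MHC class I, from 22.5 ± 0.370 to 9.55 ± 0.827 CPM (log2 ratio −1.24, adjusted p = 5.92e-06), and Cd37, a tetraspanin of immune cells, from 8.61 ± 1.05 to 3.93 ± 0.329 CPM (log2 ratio −1.13, adjusted p = 0.000178). Among the genes that rose was Ms4a7, a membrane protein of macrophages, from 8.64 ± 0.423 to 15.5 ± 0.461 CPM (log2 ratio 0.84, adjusted p = 7.24e-05).

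Markers of other blood cells were at or near 0. The 12 genes of a T and natural killer (NK) cell list summed to 0.827 to 1.15 CPM per library, and Cd3e, Cd3d, Cd3g, Cd8a and Ncr1 had 0 counts in all 5 libraries. The 8 genes of a B and plasma cell list summed to 1.40 to 2.49 CPM and the 9 of a mast cell and basophil list to 0.738 to 1.29 CPM, with 0 counts throughout for Cpa3, Tpsb2, Tpsab1 and Fcer1a. In the neutrophil list S100a9, Ly6g and Retnlg had 0 counts throughout, and nearly all of its 23.2 to 27.4 CPM came from the metalloproteinases Mmp8 and Mmp9, which fell and rose (log2 ratios −3.36 and 1.80) and which fibroblasts can also make. Dendritic cell markers summed to 7.94 to 9.80 CPM, most of it Zbtb46, with Xcr1, Ccr7, Cd209a and Siglech at 0 counts.

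Defining genes of most macrophages (Csf1r, Adgre1, Cd68 and C1q) were present in every library. Of 10 alveolar macrophage markers, 5 had under 10 counts in every library, Car4 and Ear1 with 0 counts among them. The list summed to 7.38 to 10.2 CPM, most of it Atp6v0d2 (5.54 ± 0.842 CPM in control and 6.67 ± 1.22 CPM with TGF-β1). The 10 interstitial macrophage and monocyte markers summed to 74.7 and 74.9 CPM in the controls and 77.1 to 82.7 CPM with TGF-β1, with 1 higher, 3 lower, 3 not passing and 3 not tested.

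**Figure D5:**
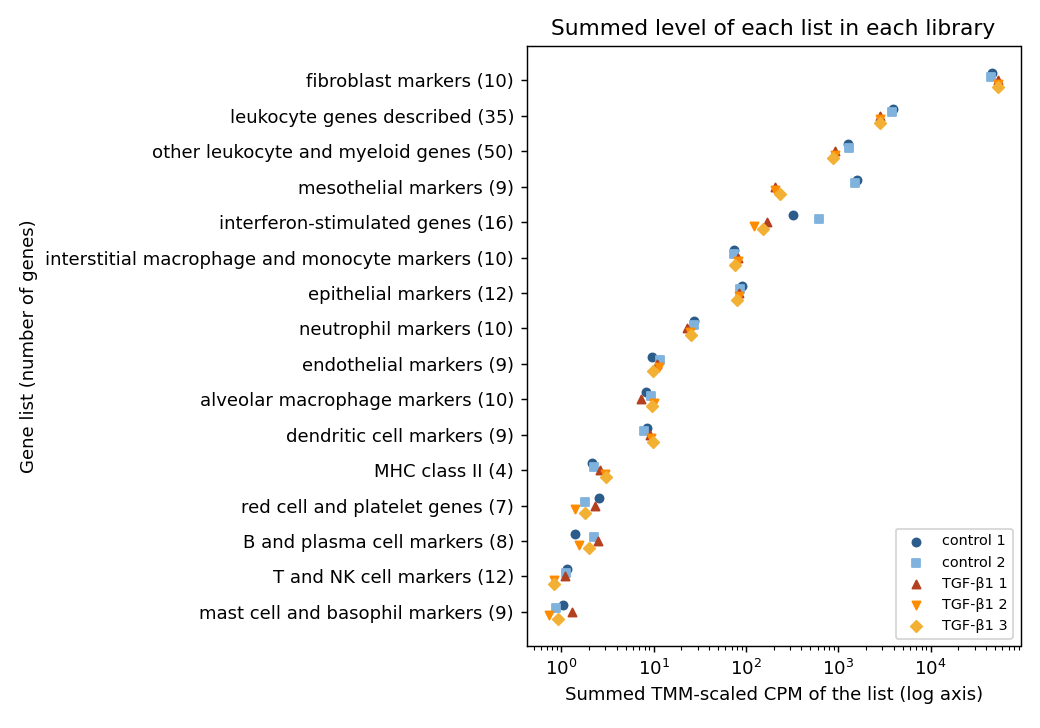
Summed TMM-scaled CPM (log axis) of the gene lists named on the axis in each of the 5 libraries. The 35 leukocyte genes lie between 2816 and 3886 CPM, below the fibroblast markers, while lymphocyte, mast cell and red cell lists lie below 3 CPM in every library.

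Markers of other cells in the culture moved in the same libraries. The 9 mesothelial markers all fell, with sums of 1524 and 1615 CPM in the controls and 206 to 233 CPM with TGF-β1. Of 10 fibroblast markers, 5 were higher and 5 were lower, with sums of 45424 and 46932 CPM in the controls and 53456 to 53913 CPM with TGF-β1. Pdgfra, Dcn and Thy1, taken by the naming rule, were among the lower ones (log2 ratios −2.02, −1.90 and −0.93). The epithelial list (Sftpc, Sftpa1, Sftpb, Sftpd, Scgb1a1 and Nkx2-1 at 0 counts) and the endothelial list summed to 80.7 to 91.0 CPM, nearly all of it the keratins Krt8 and Krt18, and to 9.63 to 11.7 CPM. The part of the mesothelial and fibroblast changes in the leukocyte values was not tested.

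Signals that act on macrophages were measured in the same cultures. Csf1, the ligand of Csf1r, was at 1725 ± 13.1 CPM in control and rose to 2218 ± 69.5 CPM with TGF-β1 (log2 ratio 0.36, SE 0.027, adjusted p = 4.61e-06), while the other Csf1r ligand, Il34, fell from 3.91 ± 0.313 to 0.795 ± 0.195 CPM (log2 ratio −2.29). Both were named after their values were seen. In the list of 9 such genes 3 were higher, 4 were lower, 1 did not pass and 1 was not tested. Cx3cl1, the ligand of the macrophage receptor Cx3cr1, rose from 34.8 ± 1.40 to 89.0 ± 3.33 CPM (log2 ratio 1.36). Ccl2, which attracts monocytes, fell from 84.1 ± 6.16 to 49.1 ± 3.78 CPM (log2 ratio −0.78), and the complement gene C3 fell from 997 ± 9.99 to 298 ± 9.60 CPM (log2 ratio −1.74).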

How the data were processed

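Messenger RNA of 2 control and 3 TGF-β1 libraries was measured with a strand-specific kit, per the labels' protocols. The authors deposited whole-number counts per Ensembl gene without scaling. The submitters' processing notes name STAR 2.5.3a, StringTie 1.3.1c and build mm10; the sources used here do not give the counting tool, its strand setting or the annotation, so overlapping and near-identical genes are reported as uncertain. Columns were assigned by title. Symbols, positions and exon lengths (the union of a gene's exons) came from GENCODE M21 (GRCm38), with symbols for 55154 of 55335 IDs. Upstream windows came from RefSeq (GRCm38.p6).

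Genes were filtered with filterByExpr, scaled with TMM and tested by group with edgeR 4.0.16 (R 4.3.3), adjusted over all 16380 genes; the fit was tested on simulated data. SE is the absolute log2 fold change over the square root of F. With 2 and 3 libraries the smallest p of an exact permutation test is 0.1. Members and lists were chosen with earlier results of these data known, so no test of a list is given. All members are named. For other lists, the naming rule took up to 3 called genes with at least 5 CPM, by size of change, or the most abundant one. Not all genes taken by that rule are named. Alternatives used DESeq2 1.42.0, limma 3.58.1 (voom), other scalings and filters, a replicate block and leaving out each library. Only TGF-β1 has a replicate 3, so the block takes up that library and is nearly the same check as leaving it out. Floors cover counting error only.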

Additional observations from a re-analysis of the deposited data

How the results depend on the processing

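Under 13 alternatives, and 2 added after the data were seen, no called gene of the 35 changed direction. The calls of 7 higher and 17 lower became 6 and 23 with library totals, 7 and 16 with DESeq2, and stayed at 7 and 17 with limma-voom and with median-of-ratios scaling. Without 1 library, 6 to 7 were higher and 15 to 17 lower. Library totals gave 2325 higher calls over all genes against 3488, so that 32.1% of calls were higher in place of 47.9%. The median log2 fold change of the tested members was −0.29 with library totals, −0.20 with the replicate block and −0.19 to −0.17 without 1 library. The summed level differed by −1027 CPM (TGF-β1 minus control), by −1267 CPM with library totals and by −1041 to −985 CPM without 1 library. With library totals, which do not correct for composition, the median over all genes tested was −0.10 in place of 0.00, and Spi1, Laptm5, Fcgr1, C1qa, Mpeg1 and Ncf1 passed as lower. The replicate number was no pairing in the labels, and same-numbered libraries deviated from their group means with correlations of 0.0159 and 0.0161 over genes. With the replicate number as a block 7 members were higher and 17 lower. As only TGF-β1 has a replicate 3, this block is not a check apart from leaving that library out. Depth limits the MHC class II genes, which are at 0 to 95 counts per library.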
